A study of Mus musculus with 36 samples.

Results

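The genes described here are 38 chaperones and heat shock proteins, taken from 51912 Ensembl gene identifiers in each of the deposited TA and soleus count tables. They were chosen by name, as the rows whose identifier maps to a fixed list of heat shock, DNAJ, small heat shock and CCT chaperonin symbols, and all 38 were found and passed the filter on low counts in every comparison. The RNA came from the tibialis anterior (TA), a mostly fast muscle, and the soleus, a slower and more oxidative muscle, of 3-month-old male C57BL/6 mice. Each muscle was taken from WT and from ∆Ig3-MuSK mice, which gave 4 groups of 9 libraries. The ∆Ig3-MuSK mice were homozygous for a germline CRISPR-Cas9 deletion of exons 6 and 7 of Musk, which encode the third immunoglobulin domain of this receptor kinase, so every cell carried the allele. Library totals ran from 43492062 to 78660422 counted reads, with group medians of 66259327 in WT TA, 65772531 in ∆Ig3-MuSK TA, 45371395 in WT soleus and 51110940 in ∆Ig3-MuSK soleus. The members were covered by 171 to 104901 reads per library.

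Chaperones bind unfolded or partly folded proteins and keep them from aggregating. HSP70 proteins work in cycles driven by ATP, in which DNAJ proteins bring the client and start the cycle and HSP110 proteins and BAG proteins end it by releasing the nucleotide. HSP90 acts later on kinases, receptors and myosin, HSP60 and the CCT ring enclose their clients in a chamber, and the small heat shock proteins hold clients without ATP. In striated muscle, Cryab, Hspb1 and Bag3 are known for protecting the sarcomere under load, and many inducible members are switched on by the factor Hsf1 through heat shock elements.

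The muscles carried the fiber markers of their labels. The 6 slow fiber genes (Myh7, Tnnt1, Tnni1, Tnnc1, Myl2 and Atp2a2) summed to 31.3 to 84.7 CPM (read counts scaled to the size of the library) in WT TA and to 16890 to 25010 CPM in WT soleus. These sums were scaled within each muscle separately. Musk, the targeted gene, had medians, scaled within each muscle, of 3.68 CPM in WT TA, 2.98 in ∆Ig3-MuSK TA, 15.4 in WT soleus and 10.6 in ∆Ig3-MuSK soleus. It was lower in ∆Ig3-MuSK by 0.46 ± 0.12 (log2, SE) in TA (edgeR adjusted p = 0.135) and by 0.44 ± 0.13 in soleus (adjusted p = 0.0978), and neither difference passed the test. The count covers the whole gene and not the deleted exons alone, so it is a weak check of the labels. WT TA replicate 5 gave the highest level for 21 of the 38 members, and ∆Ig3-MuSK TA replicate 3 did so for 22. WT soleus replicate 1 gave the lowest level for 18 members. This library also had the most of the fast myosin Myh4 among the soleus libraries, at 6023 CPM against 172 CPM in the lowest WT library.

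The members took a larger share of the soleus libraries than of the TA libraries. Their summed counts made up 0.413% to 0.456% of reads in WT TA (median 0.417%) and 0.778% to 1.09% in WT soleus (median 1.01%). In ∆Ig3-MuSK the shares were 0.394% to 0.461% (median 0.406%) in TA and 0.803% to 0.926% (median 0.892%) in soleus. The shares of the muscles did not overlap in either genotype. Genes were compared on a scale of CPM per kilobase of exon, a rough measure because it counts every annotated exon of a gene. WT TA was led by Hsp90ab1, the constitutive cytosolic HSP90, at a mean of 213. The small heat shock genes Hspb6 at 198, Cryab at 183 and Hspb8 at 142 followed. WT soleus was led by Cryab at 748, Hspb6 at 622 and Hspb7 at 598.5, with Hsp90ab1 following at 362. The same 4 genes led each muscle in ∆Ig3-MuSK, in the same order. The inducible Hspa1a stood at 2.47 per kilobase in WT TA and 18.2 in WT soleus, against 78.5 and 126 for Hspa8, the constitutive HSP70.

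Members differed in how steady they were between the 9 libraries of a group. The coefficient of variation had a median of 9.33% over all members and groups, with a lowest value of 2.39% and a highest of 51.3%. By group its median over members was 12.7% in WT TA, 8.85% in ∆Ig3-MuSK TA, 8.3% in WT soleus and 7.77% in ∆Ig3-MuSK soleus. The highest value was that of Hspb7 in WT TA, where the libraries ran from 96.0 to 418 CPM.

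Heat shock elements are built of alternating GAA and TTC blocks spaced by any 2 bases. RefSeq promoter windows (GRCm38, 250 bases before to 50 after each annotated start) were found for 30 of the 38 members. A pair of blocks, GAANNTTC or TTCNNGAA, which cover both strands, was found in a window of 16 of the 30 members (53.3%), against 17.0% of the 27025 genes with a window. A run of 3 blocks, GAANNTTCNNGAA or TTCNNGAANNTTC, which contains the pair by construction, was found for Hspd1, Hspe1 and Hsph1 (10% of the 30), against 0.662% of all genes. Pairs before the start were also found for members that were not 2-fold higher in soleus: Hspd1, Hsph1, Dnaja1, Hspb3, Cct2 and Cct5. Cct5 was called lower in WT soleus. The windows of Hspb7 and Hspa2, both at least 2-fold higher in soleus, held no pair. A link between these letters and the muscle difference was not tested. Stretches that lie before the start are shown for 7 selected members, with the blocks in capitals. All of these but Hspe1 were at least 2-fold higher in soleus.
Hspa1a (chr17:34972221-34972281, minus strand): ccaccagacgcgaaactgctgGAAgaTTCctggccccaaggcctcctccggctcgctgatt
Hspa1b (chr17:34959303-34959363, minus strand): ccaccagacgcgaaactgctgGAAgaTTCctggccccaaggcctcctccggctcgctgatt
Hspb1 (chr5:135887789-135887849, plus strand): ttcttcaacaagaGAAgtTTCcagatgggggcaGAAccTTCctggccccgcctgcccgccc
Hspb6 (chr7:30553171-30553200, plus strand): agtaattattGAAgtTTCtaaataaggaat
Dnaja4 (chr9:54699458-54699487, plus strand): ggaacctccgcGAAcgTTCtgggcctatgt
Dnajb4 (chr3:152193846-152193875, minus strand): gttcgttcgttcgctgTTCtaGAAagtaca
Hspe1 (chr1:55088053-55088082, plus strand): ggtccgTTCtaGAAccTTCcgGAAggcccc
Hspa1a and Hspa1b lie 9951 bases apart on chromosome 17, and 247 of the 250 bases before their starts are identical. Hspe1 and Hspd1 lie on opposite strands with overlapping starts, and a window of Hspd1 also holds the Hspe1 stretch. A match describes letters and not a bound site, and a window without one says nothing of Hsf1.

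The first comparison set soleus against TA within each genotype, in a single fit over the 36 libraries. In WT, 24 members were higher and 5 lower in soleus at an adjusted p under 0.05 and at least a 1.2-fold change, which is the rule for a called gene throughout. That is 76.3% of the members, against a background of 57.5% of the 20841 genes tested (30.2% higher and 27.3% lower). The median log2 difference of the members was 0.39, against 0.018 over all genes tested. In ∆Ig3-MuSK, 26 members were higher and 3 lower, also 76.3%, against a background of 56.1% (28.5% higher and 27.6% lower), with a median of 0.47 against -0.0013 over all genes. The 10 members that were higher by at least 2-fold in each genotype were 26.3% of the list, against backgrounds of 9.12% in WT and 8.66% in ∆Ig3-MuSK, and no member was lower by that much (backgrounds of 6.42% and 6.77%). The 9 libraries of the muscles did not overlap for 20 members in WT (background 28.3%) and for 27 in ∆Ig3-MuSK (background 29.4%). In both genotypes 23 members were called higher and 3 called lower. These bulk values do not tell fewer cells of a type from less RNA per cell, and the muscles differ in fiber type, so muscle and fiber makeup cannot be told apart here.

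**Figure D1:**
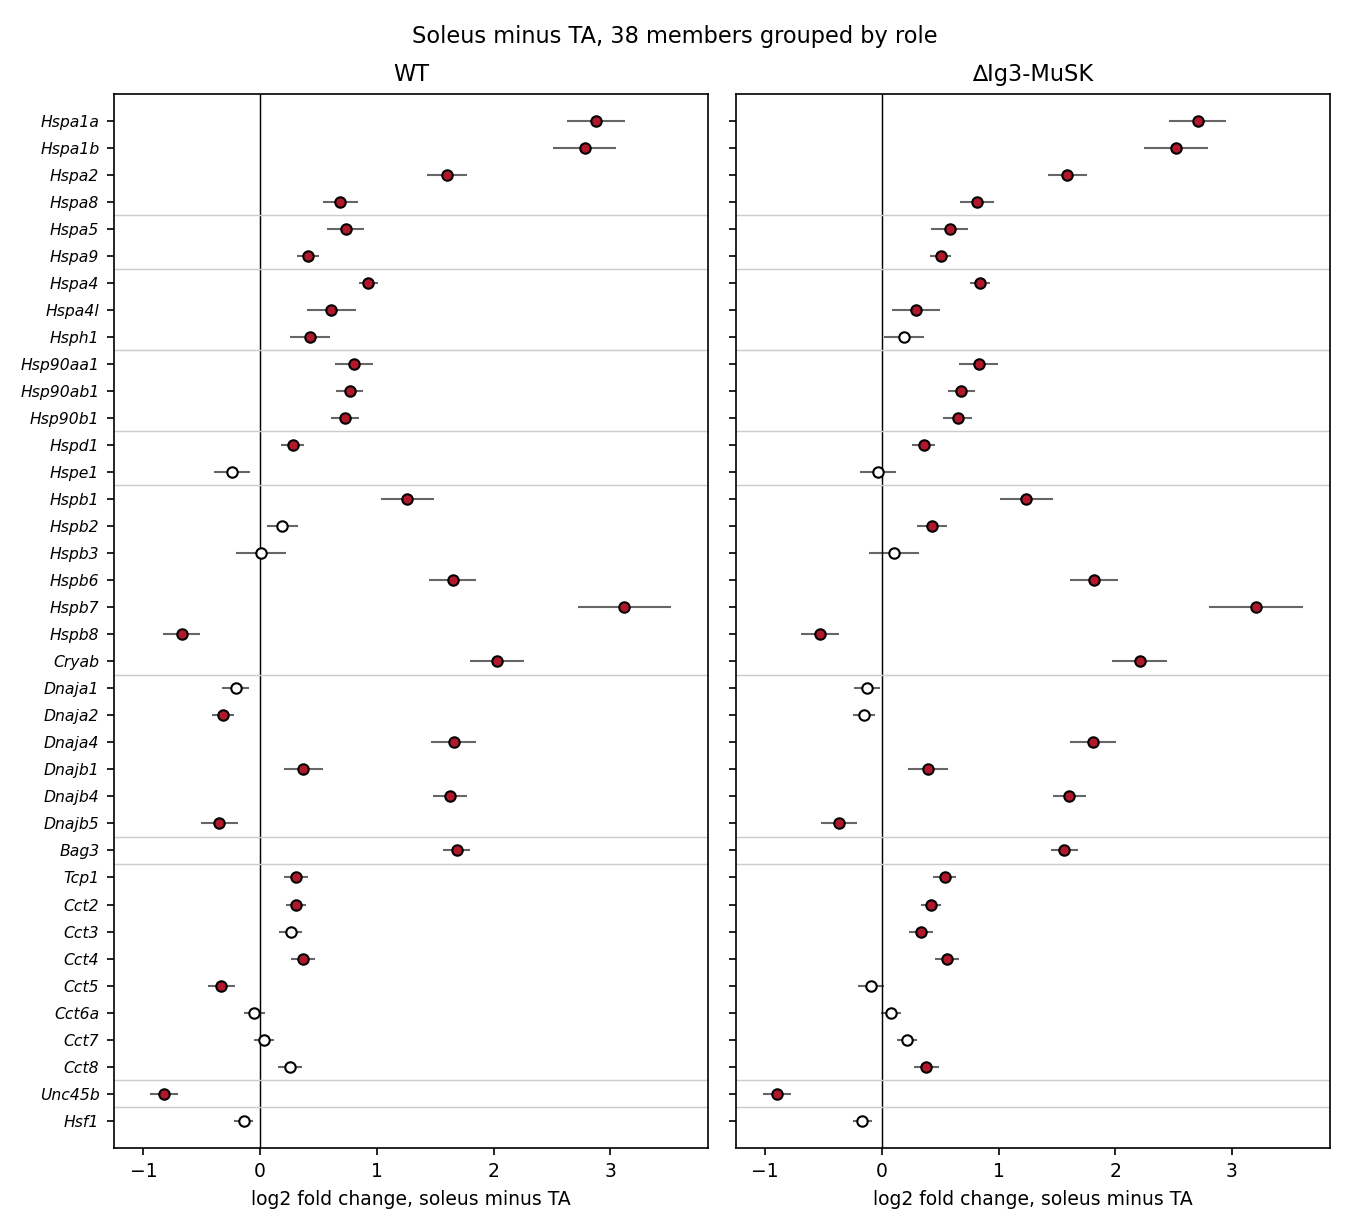
Log2 fold change of soleus against TA for the 38 members in WT (left) and ∆Ig3-MuSK (right), grouped by role from HSP70 at the top to Hsf1 at the bottom; bars are 95% intervals and red points are called. Hspb7, Hspa1a and Hspa1b lie farthest to the right and Unc45b farthest to the left in both panels.

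All 4 cytosolic HSP70 genes were higher in soleus in both genotypes. On the CPM scale set over the 36 libraries, the stress-inducible Hspa1a ran from 5.81 to 11.9 (median 6.67) in WT TA and from 40.5 to 69.1 (median 56.6) in WT soleus. It was higher in soleus by 2.88 ± 0.13 (log2, SE; adjusted p = 1.81e-21), or 7.34-fold. Every soleus library was above every TA library. Its neighbor Hspa1b, which encodes a nearly identical protein, ran from 4.89 to 11.2 (median 6.11) in WT TA and from 34.3 to 58.5 (median 46.3) in WT soleus. The difference was 2.78 ± 0.14 (adjusted p = 9.75e-20), again without overlap. In ∆Ig3-MuSK the differences were 2.71 ± 0.13 for Hspa1a and 2.52 ± 0.14 for Hspa1b. In transcripts of the GENCODE annotation, 58.8% of the 50-base words of Hspa1a also occur in Hspa1b, so reads may have been split between the pair and each value alone is uncertain.

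The constitutive Hspa8 showed a smaller difference from a far higher level. It ran from 298 to 446 CPM (median 327) in WT TA and from 449.97 to 618 (median 551.7) in WT soleus, a difference of 0.69 ± 0.075 (adjusted p = 2.95e-10) with no overlap between the muscles. In ∆Ig3-MuSK the difference was 0.82 ± 0.075. Pseudogene and other transcripts share 39.4% of the 50-base words of Hspa8. Hspa2, an HSP70 best known from the testis, was low in both muscles and higher in soleus by 1.60 ± 0.087 in WT.

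Both HSP70 genes of the organelles were called. Hspa5, the HSP70 of the endoplasmic reticulum known as BiP, ran from 87.8 to 135 CPM (median 102) in WT TA and from 121 to 223 (median 181) in WT soleus. It was higher in soleus by 0.73 ± 0.079 (adjusted p = 2.59e-10), and 8 of the 9 soleus libraries lay above the highest TA library. In ∆Ig3-MuSK the difference was 0.58 ± 0.079, with no overlap. Hspa9, the mitochondrial HSP70, was higher by 0.41 in WT and 0.50 in ∆Ig3-MuSK. The HSP110 gene Hspa4 was higher by 0.93 and 0.84, and Hspa4l by 0.61 and 0.29. Hsph1 was called in WT only, at 0.43 (adjusted p = 4.48e-05) against 0.19 in ∆Ig3-MuSK (adjusted p = 0.0555), and the test of that difference is given with the interaction.

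The HSP90 genes moved by nearly the same amount as each other. Hsp90aa1, the inducible cytosolic form, ran from 17.7 to 28.4 CPM (median 18.8) in WT TA and from 27.0 to 43.3 (median 35.9) in WT soleus, a difference of 0.80 ± 0.085 (adjusted p = 1.34e-10), and the lowest soleus library overlapped the highest TA library. The far more abundant Hsp90ab1 ran from 525.9 to 732 CPM (median 634) in WT TA and from 1002 to 1161 (median 1085) in WT soleus. It was higher by 0.77 ± 0.059 (adjusted p = 2.53e-14), with no overlap. Hsp90b1 of the endoplasmic reticulum was higher by 0.73. In ∆Ig3-MuSK the values were 0.83, 0.68 and 0.65, in the same order. Transcripts of other genes share 47.5% of the 50-base words of Hsp90aa1.

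The mitochondrial chamber genes split. Hspd1, which encodes HSP60, was called higher in soleus at 0.28 in WT and 0.36 in ∆Ig3-MuSK. Hspe1, which encodes its lid HSP10 and starts beside Hspd1, was not called in either genotype, with differences of -0.24 and -0.034. The annotated exons of these genes overlap by 112 bases, and the libraries do not keep strand.

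The small heat shock genes held the largest rise among the members, and 1 of them was called lower in both genotypes. Hspb7, a heart and muscle small heat shock protein, ran from 96.0 to 418 CPM (median 158) in WT TA and from 1257 to 1907 (median 1704) in WT soleus. It was higher in soleus by 3.12 ± 0.20 (adjusted p = 2.69e-16), or 8.70-fold, the largest difference among the members. Cryab, the lens and muscle protein alpha B-crystallin, ran from 199 to 413 CPM (median 263) in WT TA and from 942 to 1213 (median 1121) in WT soleus, a difference of 2.03 ± 0.12 (adjusted p = 1.07e-17). Hspb6 ran from 339 to 791 CPM (median 420.25) in WT TA and from 1219 to 1598 (median 1448) in WT soleus, a difference of 1.65 ± 0.10 (adjusted p = 8.96e-17). Hspb1, the actin-binding HSP25 of mouse, ran from 39.7 to 60.4 CPM (median 43.2) in WT TA and from 79.5 to 138 (median 111) in WT soleus, a difference of 1.26 ± 0.12 (adjusted p = 4.03e-12). None of these 4 genes overlapped between the muscles in either genotype. In ∆Ig3-MuSK they were higher in soleus by 3.21, 2.21, 1.82 and 1.24 in the same order. Hspb8, the partner of Bag3, went the other way: it ran from 229 to 419.7 CPM (median 261) in WT TA and from 154 to 193 (median 176) in WT soleus. The difference was -0.67 ± 0.082 (adjusted p = 3.70e-09), with no overlap. Hspb3 differed by 0.0041 in WT and 0.11 in ∆Ig3-MuSK and was not called. Hspb2, whose exons overlap those of Cryab by 252 bases, was called in ∆Ig3-MuSK at 0.43 and not in WT at 0.19. Transcripts of other genes share 50.1% of the 50-base words of Hspb1.

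Summed over the 7 small heat shock genes, WT TA libraries ran from 963 to 2197 CPM (median 1224) and WT soleus libraries from 3734 to 5014 (median 4735). The corresponding ranges in ∆Ig3-MuSK were 957 to 1525 (median 1068) and 3727 to 4859 (median 4371). The muscles did not overlap in either genotype.

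**Figure D2:**
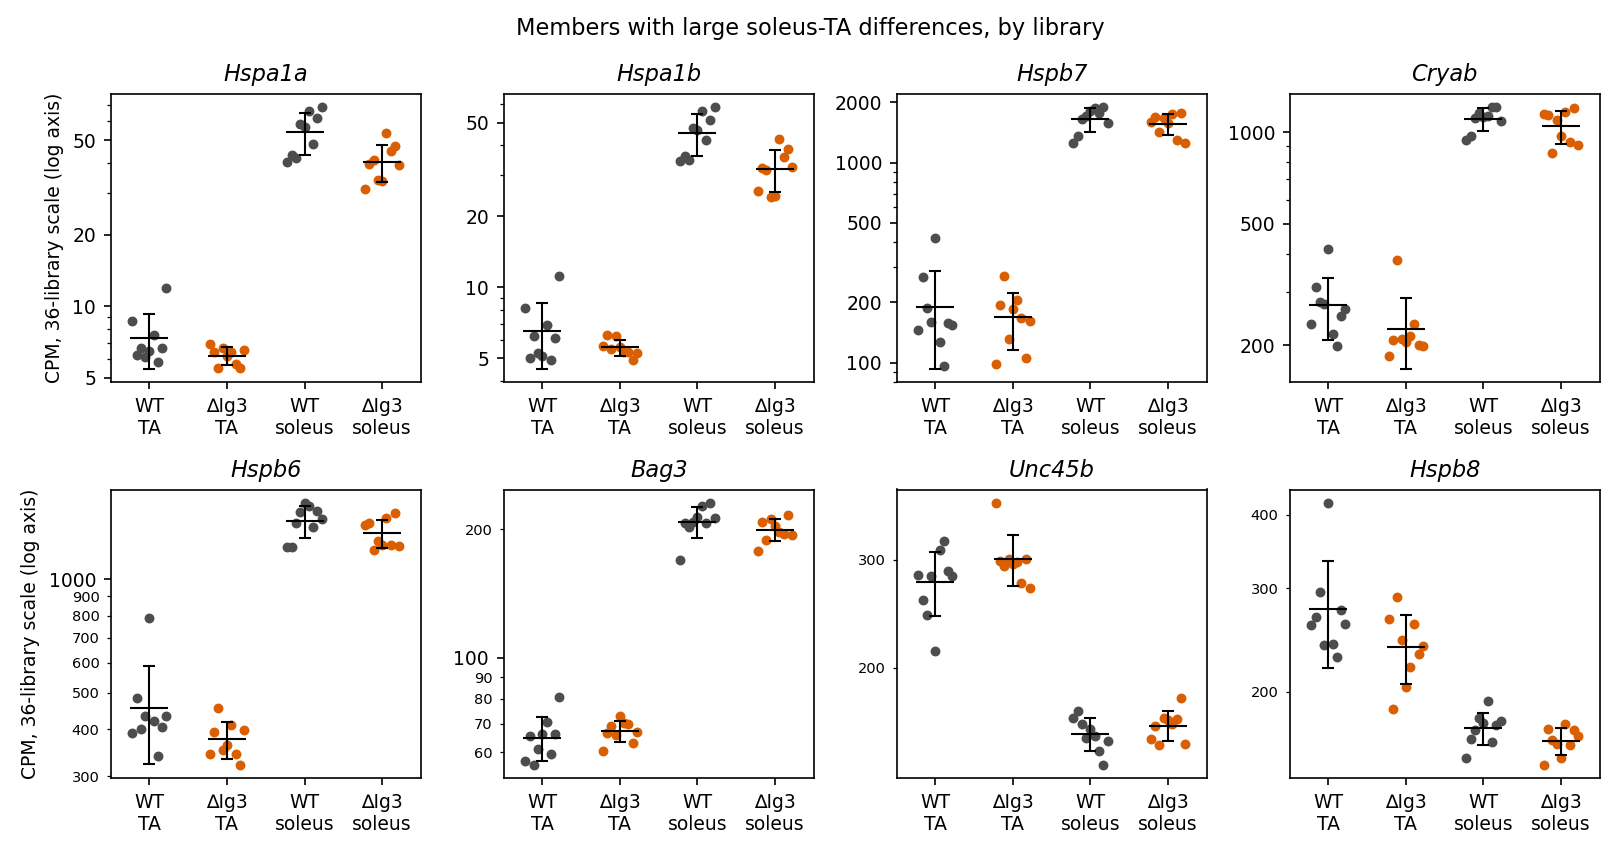
CPM on a log axis for 8 members in each of the 9 libraries of the 4 groups, on the 36-library scale; points are libraries, horizontal bars are means and whiskers are SD, with WT in grey and ∆Ig3-MuSK in orange. For the first 6 genes every soleus library lies above every TA library, and for Unc45b and Hspb8 every soleus library lies below the TA libraries of its genotype.

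Bag3, the BAG protein that couples HSP70 to small heat shock clients and to autophagy, ran from 56.0 to 80.8 CPM (median 65.7) in WT TA and from 169.6 to 231 (median 208) in WT soleus. It was higher in soleus by 1.68 ± 0.059 (adjusted p = 2.42e-24), the smallest adjusted p of the members, and by 1.56 ± 0.059 in ∆Ig3-MuSK. Bag3 and Hspb8, whose proteins form a complex, thus differed between the muscles in opposite directions.

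The DNAJ genes, the partners of HSP70, were divided. Dnaja4 was higher in soleus by 1.66 in WT and 1.81 in ∆Ig3-MuSK, Dnajb4 by 1.63 and 1.61, and Dnajb1 by 0.37 and 0.40. Dnajb5, an HSP40, ran from 131 to 179.9 CPM (median 155) in WT TA and from 99.4 to 142 (median 125) in WT soleus. The difference was -0.35 ± 0.080 (adjusted p = 0.000225), and 5 of the 9 soleus libraries lay below the lowest TA library. Dnaja2 was called lower in WT at -0.32 and not in ∆Ig3-MuSK at -0.15, and Dnaja1 was called in neither. The exons of Dnaja4 overlap those of Wdr61, on the opposite strand, by 1581 bases.

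Unc45b, the muscle chaperone that folds the myosin head, had the largest fall. It ran from 213 to 323 CPM (median 283) in WT TA and from 139 to 170.2 (median 155) in WT soleus, a difference of -0.82 ± 0.061 (adjusted p = 1.30e-14), or 0.565 times the TA level. In ∆Ig3-MuSK the difference was -0.90 ± 0.061, and the muscles did not overlap in either genotype.

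Of the 8 CCT subunits, which form the cytosolic ring that folds actin and tubulin, 3 were called higher (Cct4, Tcp1 and Cct2, at 0.31 to 0.36) and 1 lower in WT soleus. The lower one was Cct5, which ran from 70.5 to 115 CPM (median 80.3) in WT TA and from 65.7 to 70.0 (median 67.9) in WT soleus, a difference of -0.33 ± 0.059 (adjusted p = 5.00e-06). Its WT muscles did not overlap. In ∆Ig3-MuSK 5 subunits were called higher, at 0.33 to 0.56, and Cct5 was at -0.092 and not called. The shares called over all genes tested were 30.2% higher and 27.3% lower in WT, and 28.5% and 27.6% in ∆Ig3-MuSK. Hsf1, the factor that induces many members, ran from 29.6 to 35.5 CPM (median 34.0) in WT TA and from 28.3 to 32.1 (median 30.1) in WT soleus. Its differences of -0.14 ± 0.042 in WT and -0.17 ± 0.042 in ∆Ig3-MuSK had adjusted p = 0.0033 and 0.00062 and fell short of 1.2-fold.

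Other genes of protein folding were read beside the members. Over all genes tested, 30.2% were called higher and 27.3% lower in WT soleus, and 28.5% and 27.6% in ∆Ig3-MuSK soleus. Of 47 co-chaperones and further chaperones, 11 were called higher and 11 lower in WT soleus, with a median of -0.0078. Stip1, which joins HSP70 to HSP90, was higher by 0.34 and St13, an HSP70 cochaperone, by 0.89, while the HSP90 activators Ahsa1 and Ahsa2 were lower by 0.31 and 0.28. Of 20 genes of folding in the endoplasmic reticulum, 13 were called higher and 3 lower in WT, with a median of 0.43. Of the 12 immediate early genes, a class switched on soon after a stimulus, 10 were called higher and 1 lower in WT soleus and 8 and 1 in ∆Ig3-MuSK; their part in the values of Hspa1a, Hspa1b and the other inducible members was not tested.

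The second comparison set ∆Ig3-MuSK against WT in TA, on a CPM scale set over the 18 TA libraries. No member was called by edgeR, where 0.0149% of the 20075 genes tested were called (3 genes). At an unadjusted p under 0.05, 16 members were lower (42.1%) and 0 higher, against backgrounds of 12% lower and 12.2% higher. DESeq2 and limma-voom with sample weights each called 1 member, Hspa8, where they called 225 and 150 of the 20075 genes. The fold change was below 0 for 32 of the 38 members (84.2%, against 50.7% of all genes), with a median of -0.14 against -0.0032. No member separated the genotypes without overlap, where 0.0199% of all genes did so.

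Hspa8 had the smallest adjusted p. It ran from 288 to 426 CPM (median 316) in WT TA and from 221 to 311 (median 257) in ∆Ig3-MuSK TA, a difference of -0.29 ± 0.080 (adjusted p = 0.144), and 6 of the 9 ∆Ig3-MuSK libraries lay below the lowest WT library. Hsp90aa1 ran from 17.0 to 27.1 CPM (median 18.2) in WT and from 13.9 to 19.3 (median 16.1) in ∆Ig3-MuSK, a difference of -0.27 ± 0.083 (adjusted p = 0.145). Here 7 libraries lay below the lowest WT library. Dnaja1 ran from 19.0 to 27.1 CPM (median 21.5) and from 17.9 to 21.5 (median 19.3), a difference of -0.18 ± 0.060 (adjusted p = 0.152).

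The values of the inducible and small heat shock genes overlapped widely. Hspa1a ran from 5.61 to 11.4 CPM (median 6.39) in WT TA and from 5.22 to 6.64 (median 6.12) in ∆Ig3-MuSK TA (-0.25 ± 0.11, adjusted p = 0.193). Hspa1b ran from 4.73 to 10.7 (median 5.90) and from 4.75 to 6.02 (median 5.24), a difference of -0.24 ± 0.13. The highest value of both genes was in WT TA replicate 9, which also had the most of the immediate early gene Fos, at 13.1 CPM against 4.00 CPM in the next WT TA library. Hspa5 differed by -0.17 ± 0.065, with ranges of 84.7 to 129 and 78.1 to 93.5 CPM. All 7 small heat shock genes were below 0, between -0.28 (Hspb6) and -0.15 (Hspb1), with 4 at an unadjusted p under 0.05. Hspb6 ran from 328 to 756 CPM (median 404) in WT and from 310 to 434 (median 348) in ∆Ig3-MuSK. Cryab ran from 192 to 394 (median 253) and from 177 to 363 (median 199), a difference of -0.26 ± 0.14. The ranges of Hspb7 were 92.7 to 399.6 and 94.3 to 259 CPM, with a difference of -0.17 ± 0.23, and those of Hspb1 were 38.4 to 57.7 and 33.4 to 54.3 CPM.

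All 8 CCT subunits were below 0 in ∆Ig3-MuSK TA, between -0.20 (Cct5) and -0.079 (Cct2), 5 of them at an unadjusted p under 0.05. Summed, they ran from 488 to 685 CPM (median 539) in WT TA and from 479 to 563 (median 498) in ∆Ig3-MuSK TA. The 6 members above 0 included Unc45b at 0.12 ± 0.074 (204 to 312 CPM in WT and 261 to 358 in ∆Ig3-MuSK), Dnajb5 at 0.11 ± 0.084 (125 to 173 and 129 to 206 CPM), Bag3 at 0.054 ± 0.063 (53.6 to 77.5 and 58.2 to 70.1 CPM) and Hsp90ab1 at 0.056 ± 0.069 (502 to 700.4 and 536 to 753 CPM). Hsf1 was at 0.0008 ± 0.047, with 28.2 to 34.0 CPM in WT and 29.7 to 35.2 in ∆Ig3-MuSK.

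Other measures also differed between the genotypes in TA. All 3 tendon markers were below 0 (median -0.43), 2 of them at an unadjusted p under 0.05, and 8 of 11 genes linked to temperature and the daily clock were higher at that p. Fast fiber and fibroblast markers each had 1 gene lower at that p, and endothelial, macrophage, adipocyte, Schwann, erythroid and slow fiber markers had none in either direction. The titin gene Ttn, which has a very long transcript, ran from 1304 to 5850 CPM in WT TA and from 3634 to 6850 in ∆Ig3-MuSK TA. Over all genes tested, the median genotype difference rose from -0.083 for genes with under 2 kilobases of exon to 0.12 for those over 8 kilobases. The members lay below the all-gene median in each length class, at -0.22 against -0.083 under 2 kilobases, -0.15 against -0.040 at 2 to 4, -0.12 against 0.033 at 4 to 8, and -0.084 against 0.12 over 8. The part of these measures in the members' values was not tested. Without WT replicate 5 and ∆Ig3-MuSK replicate 3, edgeR called 0 members. A count of 0 could not fall, so this fit does not show how far these libraries shape the lower values.

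**Figure D3:**
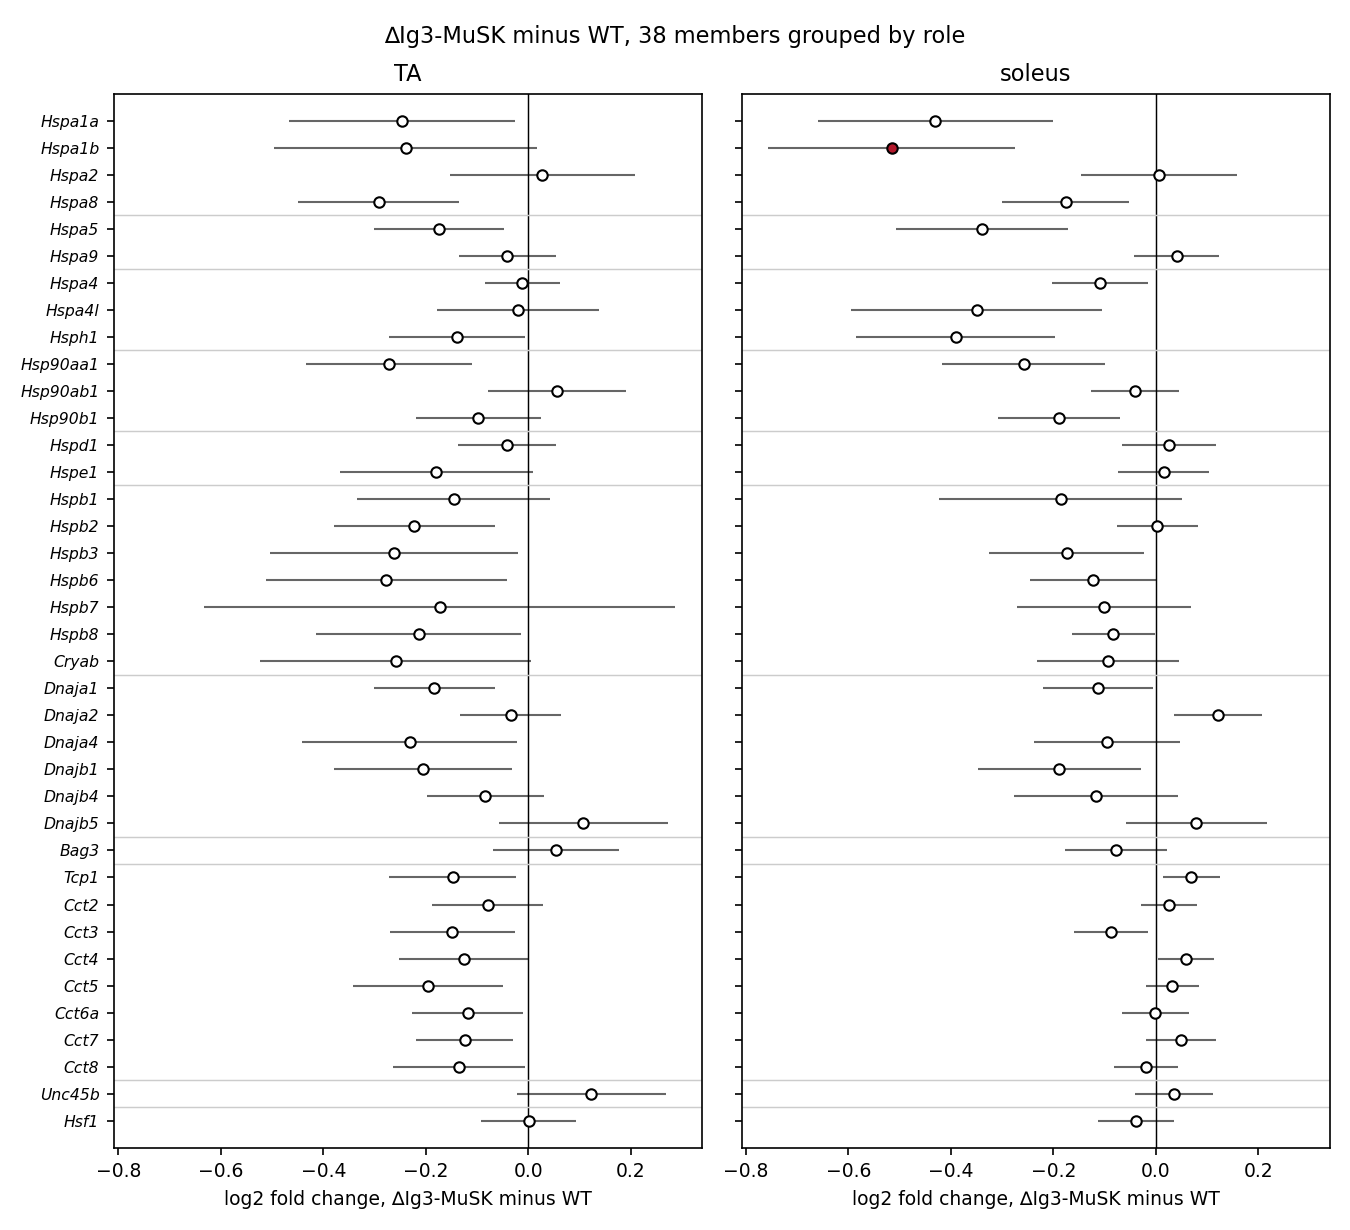
Log2 fold change of ∆Ig3-MuSK against WT for the 38 members in TA (left) and soleus (right), grouped by role as in the plot of muscle differences; bars are 95% intervals and the red point is the 1 called value. In TA 32 of the points lie below 0, and in soleus Hspa1b lies lowest at -0.52.

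The third comparison set ∆Ig3-MuSK against WT in soleus, on a CPM scale set over the 18 soleus libraries. edgeR called 1 member, Hspa1b, where 0.952% of the 19439 genes tested were called (0.365% higher and 0.586% lower). That is 2.63% of the members. At an unadjusted p under 0.05, 12 members were lower (31.6%) and 2 higher (5.26%), against backgrounds of 10.1% and 8.48%. The median over the members was -0.086, against -0.0017 over all genes. No member was free of overlap between the genotypes, where 0.0617% of all genes were.

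Hspa1b ran from 35.5 to 61.1 CPM (median 48.2) in WT soleus and from 25.2 to 44.3 (median 32.8) in ∆Ig3-MuSK soleus. It fell by 0.52 ± 0.12 on the log2 scale (adjusted p = 0.0445), and 6 of the 9 ∆Ig3-MuSK libraries lay below the lowest WT library. The call is close to the threshold: it was lost in 14 of the 18 fits that left out 1 library, with adjusted p up to 0.0900, while the log2 fold change stayed between -0.58 and -0.46. The fits without WT soleus replicate 1, WT soleus replicate 2 or ∆Ig3-MuSK soleus replicate 6 instead called 6, 5 and 4 members, all lower, and 3.08%, 2.13% and 1.03% of all genes. Hspa1a, which shares much of its sequence, ran from 41.9 to 72.3 CPM (median 59.0) and from 32.5 to 55.4 (median 40.9), a difference of -0.43 ± 0.12 (adjusted p = 0.0701). Its lower values included 5 libraries below the lowest WT library.

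No other member was called by edgeR, and 4 more are given here. Hsph1, the HSP110 that exchanges nucleotide for HSP70, ran from 33.8 to 59.7 CPM (median 52.5) in WT and from 32.7 to 45.1 (median 38.5) in ∆Ig3-MuSK (-0.39 ± 0.099, adjusted p = 0.0563). Hspa5 ran from 125 to 233 CPM (median 189) and from 122 to 162 (median 144), a difference of -0.34 ± 0.086 (adjusted p = 0.0564). Hsp90aa1 ran from 27.9 to 45.1 CPM (median 37.5) and from 26.8 to 37.3 (median 30.0), a difference of -0.26 ± 0.081 (adjusted p = 0.105). Hspa8 differed by -0.18 ± 0.063, with 465 to 644 CPM in WT and 452 to 582 in ∆Ig3-MuSK. For each of these 4 genes most ∆Ig3-MuSK libraries lay within the WT range. DESeq2 called Hspa1a, Hspa5 and Hsph1 besides Hspa1b, and limma-voom with sample weights called 6 members, where these tools called 2.5% and 3.36% of all genes.

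**Figure D4:**
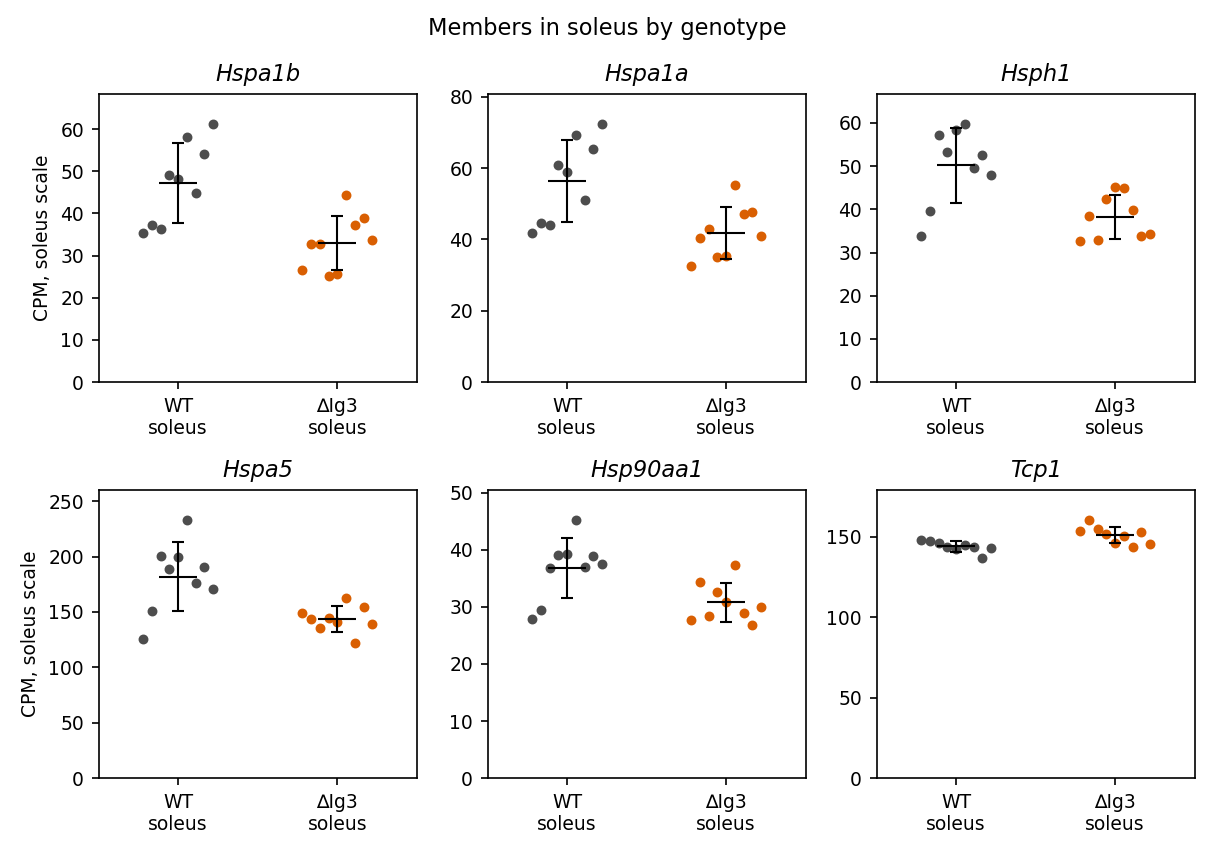
CPM on the soleus scale for 6 members in the 9 WT (grey) and 9 ∆Ig3-MuSK (orange) soleus libraries; points are libraries, horizontal bars are means and whiskers are SD. The genotypes overlap in every panel, and Hspa1b, at the upper left, is the 1 called gene.

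Of the small heat shock genes 6 of 7 were below 0, between -0.19 and -0.083, and 1 had an unadjusted p under 0.05 (Hspb3, -0.17). Hspb1 ran from 81.8 to 146 CPM in WT and from 84.7 to 141 in ∆Ig3-MuSK, Hspb6 from 1255 to 1663 and from 1249 to 1511, Hspb7 from 1299.7 to 2012 and from 1309 to 1811, and Cryab from 974 to 1292 and from 893 to 1208. For each of these 4 at most 2 of the 9 ∆Ig3-MuSK libraries lay below the lowest WT library. Bag3 differed by -0.078 ± 0.051 (175 to 243 and 185 to 219 CPM), Hsp90ab1 by -0.041 ± 0.044 (1048 to 1209.6 and 1026 to 1215 CPM), Unc45b by 0.035 ± 0.039 (146.5 to 175 and 157 to 179.7 CPM) and Hsf1 by -0.039 ± 0.038 (29.3 to 33.5 and 27.0 to 32.9 CPM).

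The members with positive values and the smallest p were Dnaja2, Tcp1 and Cct4. Dnaja2, a constitutive HSP40, ran from 130.1 to 158 CPM (median 141) in WT and from 141 to 167 (median 154) in ∆Ig3-MuSK, a difference of 0.12 ± 0.043 (adjusted p = 0.143). Tcp1, the CCT alpha subunit, ran from 137 to 148 CPM (median 144) and from 144 to 160.2 (median 151), a difference of 0.069 ± 0.029 (adjusted p = 0.200). For Tcp1 6 of the 9 ∆Ig3-MuSK libraries were above the highest WT library. Cct4 ran from 66.9 to 75.5 CPM and from 73.2 to 77.8, a difference of 0.058 ± 0.028. The last of these had an unadjusted p of 0.0504. In all, 5 CCT subunits were above 0 and 3 below, and their sum was 647 to 692 CPM (median 665) in WT and 661 to 699 (median 673) in ∆Ig3-MuSK.

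At an unadjusted p under 0.05 and in both muscles, 7 members were lower in ∆Ig3-MuSK: Hspa1a, Hspa8, Hspa5, Hsp90aa1, Hspb3, Dnajb1 and Cct3. These are 7 of 38 members, against 1.24% of the 18931 genes tested in both muscles. For 8 label numbers of each genotype, a TA and a soleus library bore the same number. Whether they share an animal is not known, so the muscles cannot be taken as separate evidence. edgeR called none of these 7 in either muscle. DESeq2 called Hspa8 in TA and Hspa1a and Hspa5 in soleus, and limma-voom called these and also Hsp90aa1 in soleus.

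The same lists were read for the genotype. At an unadjusted p under 0.05, 12% of all genes tested were lower and 12.2% higher in TA, and 10.1% and 8.48% in soleus. In soleus 0.586% of all genes were called lower. In soleus 3 of 20 genes of folding in the endoplasmic reticulum were called, all lower, and 10 were lower and 1 higher at an unadjusted p under 0.05. Hyou1, an HSP110 of that compartment, ran from 24.0 to 33.0 CPM in WT and from 21.6 to 26.6 in ∆Ig3-MuSK (-0.29 ± 0.060, adjusted p = 0.0301). Sdf2l1, a partner of Hspa5, differed by -0.59 ± 0.12 (adjusted p = 0.0313) and the stress-secreted factor Manf by -0.33 ± 0.078 (adjusted p = 0.0436). In TA 0 of the 20 were called by edgeR, with 4 lower and 0 higher at an unadjusted p under 0.05. Of the 47 co-chaperones 0 were called in either muscle. In TA 18 of them were lower and 1 higher at an unadjusted p under 0.05, and in soleus 5 were lower and 6 higher.

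Genes outside protein folding also differed between the genotypes. Of 11 genes linked to temperature and the daily clock, Dbp was called higher in both muscles (0.90 in TA and 1.23 in soleus), and in soleus 5 more were called higher (Per2, Nr1d2, Ciart, Tef and Hlf) and Arntl was called lower. The cold-inducible Cirbp was at 0.20 in TA and 0.19 in soleus and was not called. In soleus all 12 immediate early genes were below 0 and 0 were called by edgeR, with 5 at an unadjusted p under 0.05. The 6 fast fiber markers were all above 0 in soleus (median 0.38), with 1 of them at an unadjusted p under 0.05. Their summed level was 14450 to 32540 CPM in WT and 20850 to 28550 in ∆Ig3-MuSK, and each was detected in every library. Of the 6 slow fiber markers 4 were below 0 and 2 above (median -0.056), with 0 at that p. Endothelial, fibroblast, macrophage and tendon markers, 3 genes each, were all below 0 in soleus, with 2, 1, 0 and 2 of them at an unadjusted p under 0.05. Adipocyte, Schwann and erythroid markers, also 3 genes each, were all above 0, with 0, 1 and 0 at that p. The part of these genes in the members' differences was not tested. Without the 4 soleus libraries with the most Myh4, 2 of each genotype, edgeR called 6 members lower (3.52% of all genes). Among them were Hspa1b (-0.57, adjusted p = 0.0205), Hspa5 (-0.43) and Hsph1 (-0.44). This setting was chosen after the data were seen. The 4 libraries include WT soleus replicate 1, the lowest of its group for 18 members. Without that library alone, edgeR also called 6 members lower (3.08% of all genes). Myh4 content and this library therefore cannot be told apart in the fit. The label numbers of the genotypes do not interleave, so genotype and whatever those numbers mark cannot be told apart.

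The last comparison asked whether the genotype difference itself differed between the muscles, as an interaction over the 36 libraries. edgeR and DESeq2 called 0 members, where edgeR called 0 (0%) and DESeq2 3.82% of the 20841 genes tested. With edgeR the smallest adjusted p of the members was 0.103 and that of all genes 0.0652. At an unadjusted p under 0.05, 6 members were higher in soleus than in TA (15.8%) and 1 lower (2.63%), against backgrounds of 13.7% and 11.2%. The share of higher members thus lay near its background. All 8 CCT subunits were above 0. Of them Tcp1 (0.23 ± 0.073, adjusted p = 0.103), Cct7 (0.18 ± 0.061, adjusted p = 0.104), Cct5 (0.24 ± 0.083, adjusted p = 0.105) and Cct4 had an unadjusted p under 0.05. This was not particular to them: of the 47 co-chaperones 36 were above 0, with 13 higher and 1 lower at that p. Of the 20 genes of folding in the endoplasmic reticulum 7 were above 0, with 1 higher and 4 lower. Of the 12 immediate early genes 2 were above 0, with 0 higher and 2 lower. In DESeq2 Tcp1, Cct7 and Cct5 had adjusted p = 0.0432, 0.0442 and 0.0478 and fell short of 1.2-fold. In the separate fits of each muscle the genotype values of the 4 subunits were -0.15, -0.12, -0.20 and -0.125 in TA and 0.069, 0.048, 0.032 and 0.058 in soleus, in the same order. The HSP110 genes lay on the other side, with Hspa4l at -0.32 ± 0.15 (adjusted p = 0.186) and Hsph1 at -0.24 ± 0.12 (adjusted p = 0.214). For Hspa1b, called in soleus and not in TA, the interaction was -0.26 ± 0.19 (adjusted p = 0.384), so a difference between the muscles was not shown. Without WT TA replicate 9 or without ∆Ig3-MuSK TA replicate 3, edgeR called 1 member, Cct5, beside 6.21% and 4.39% of all genes. Values for Hspa1a (-0.17), Hspa5 (-0.15), Hsp90aa1 (0.026), Hspa8 (0.13), Bag3 (-0.12) and Hsf1 (-0.027) all had adjusted p above 0.05.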

How the data were processed

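Total RNA of whole TA and soleus muscles was sequenced as non-stranded libraries. The authors trimmed reads with Trimmomatic, aligned them with GSNAP to the mouse genome GRCm38 and counted them per gene with HTSeq, and they deposited raw counts in 1 table per muscle. Tool versions, the annotation release and the treatment of reads with several matches are not given in the sources used here. Groups came from the labels. Genes were filtered with filterByExpr (minimum count 10, minimum total 15), scaled by TMM factors and tested with the quasi-likelihood test of edgeR 4.0.16 in R 4.3.3, with Benjamini-Hochberg adjustment over all genes. A call needed an adjusted p under 0.05 and a 1.2-fold change. Genotypes were compared in 18-library fits, on 20075 genes in TA and 19439 in soleus, and muscles and the interaction in a fit over 36 libraries on 20841 genes. SE is that of the log2 fold change. DESeq2 1.42.0, limma 3.58.1 with voom, RLE factors, no filter, other fold minimums, blocks and left-out libraries were alternatives. The tests were checked on simulated counts with a log2 change of 1, where false calls were 2.44% (TA) to 6.98% (soleus) of calls. No member differed between genotypes by that much, so the check does not reach the sizes reported for genotype.

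The muscles' tables were counted separately but joined by gene identifier. CPM values are TMM-scaled within a muscle for genotype comparisons and summed marker lists. They are scaled over 36 libraries for muscle comparisons, while Myh4, Ttn and Fos are plain CPM. Replicates were libraries of separate label numbers, so p-values measure the spread between these libraries. For 8 WT and 8 ∆Ig3-MuSK label numbers, 1 library of each muscle bore the same number, while the study's methods give a single muscle per animal, so whether such libraries share an animal is not known. The members and lists were chosen with earlier results of these data known. Ranges or fold changes were given for members called between genotypes or in the interaction. They were also given for the 3 with the smallest p in each direction per genotype comparison. The 4 largest called in each direction per muscle comparison and 13 fixed members were added. Ranges between the muscles are those of WT, and not every ∆Ig3-MuSK or interaction value of these members was printed. Members were matched to GENCODE release 21 (mouse) coordinates and 50-base words and to RefSeq promoter windows.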

Additional observations from a re-analysis of the deposited data

Results flagged for a closer look

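In 21 of the 152 sets of 9 libraries (38 members in 4 groups), the highest or lowest library stood apart from the others by a share of the range above Dixon's 95% limit for 9 values. Chance sets apart about 1 in 20 such sets, and members of a library share its RNA, so these are not separate events. Values are CPM on the 36-library scale.

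WT TA replicate 5 passed this limit as the highest library for 9 members. They were Hspb6 at 791.0 (next 484.6), Hspb8 at 419.7, Hspa8 at 445.6, Hspa5 at 134.7, Hsp90aa1 at 28.35, Hsp90b1 at 90.83, Dnaja4 at 117.3, Cct3 at 58.37 and Cct8 at 100.2. Replicate 5 had the lowest Myh4 of WT TA, at 9667 CPM. WT TA replicate 9 passed the limit as the highest for Hspa1a at 11.87 and Hspa4 at 72.7.

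∆Ig3-MuSK TA replicate 3 passed the limit as the highest for Cryab at 379.9 (next 234.1), Cct2 at 65.95, Hspd1 at 111.7 and Hspe1 at 34.6. It had the lowest Myh4 of its group, at 14540 CPM, and also the lowest Ttn, at 3634 CPM (next 4696). ∆Ig3-MuSK TA replicate 1 passed the limit as the highest for Unc45b at 372.1.

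In soleus, WT replicate 1 passed the limit as the lowest for Bag3 at 169.6. In ∆Ig3-MuSK soleus, Cct6a reached 70.98 in replicate 6, Dnajb1 9.805 in replicate 7 and Hsp90ab1 1192 in replicate 2, and Dnajb5 was lowest in replicate 1 at 96.84. The part of fiber makeup or of transcript length in these values was not tested.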

How the results depend on the processing

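The muscle calls moved little: 28 to 31 members in WT and 28 to 29 in ∆Ig3-MuSK with 1 library left out, 28 or 29 under DESeq2, RLE factors, no filter or fits within 1 genotype, and 10 in each genotype at a 2-fold minimum. In TA the genotype count of 0 rose to 1 (Hspa8) with DESeq2, with limma-voom and in a single fit over 36 libraries, which called 225, 150 and 692 of all genes. It stayed at 0 with each library left out. In soleus the count of 1 became 4 with DESeq2 (2.5% of all genes), 6 with limma-voom (3.36%), 3 in the single fit (1.5%) and 6 (3.52%) without the 4 libraries highest in Myh4, a setting chosen after seeing the data, as was leaving out 2 TA libraries. It ran from 0 to 6 with 1 library left out, and 14 of those 18 fits called 0. The cause was not tested. The interaction count of 0 held under the other tools and ran from 0 to 1 with 1 library left out.

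Some values changed sign. Hsf1 in TA, 0.0008, became -0.003 with DESeq2, -0.0029 with RLE factors, -0.0038 without the filter, -0.037 with limma-voom and -0.028 without the 2 TA libraries, where Hsp90ab1 became -0.0043. With 1 library left out, Hsf1 ran from -0.024 to 0.013 and Hspb7 from -0.29 to 0.054 in TA, and in the interaction Hsp90aa1 ran from -0.051 to 0.069, Hspb7 from -0.1495 to 0.1995 and Hspb1 from -0.092 to 0.039.

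The replicate number as a block gave 0 members in TA and 4 in soleus (1.79% of all genes), and the label number as a block left the muscle counts at 29 in each genotype and the interaction at 0. Same-numbered WT and ∆Ig3-MuSK libraries correlated in their deviations at -0.235 to 0.627 in TA (2 of 9 pairs over 0.1) and -0.393 to 0.465 in soleus (3 of 9). TA and soleus libraries of a label number correlated at 0.0116 to 0.214 in WT (4 of 8 over 0.1) and 0.0395 to 0.453 in ∆Ig3-MuSK (7 of 8). All 16 were positive. TA and soleus libraries of different numbers were not correlated for comparison, and the labels do not tie a number to an animal. Shared animals were therefore neither shown nor excluded. The main fits did not take the numbers as pairs.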
